A study of Homo sapiens with 4 samples.

Results

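The genes described here are 39 human genes of double-strand break and crosslink repair, taken by symbol from the 59050 genes counted in each library. They comprised 21 genes of homologous recombination, 13 genes of the Fanconi pathway and 5 genes of end joining. Their mRNA was compared by RNA-seq between 2 untreated libraries (0 h, titled nop53) and 2 libraries of cells given doxorubicin at 1 ug/ml for 24 h (titled p53), all labelled HepG2, a line established from a human liver tumor. Doxorubicin is an anthracycline that poisons topoisomerase II and so breaks DNA, and the study used it to raise p53. The treatment tag of the treated libraries reads p53-miRNA, while the titles, protocol and design text give the drug, and no other agent or allele is named for either group. All samples are of 1 cell line, and the control is a 0 h sample, so time in culture and the drug cannot be told apart. The design text calls the replicates biological, but separate cultures are not described, so p-values measure only the spread between these libraries.

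Double-strand breaks are repaired mainly by homologous recombination, which copies the sister chromatid after the ends have been resected, or by end joining, which ligates the ends directly. The Fanconi pathway unhooks crosslinks between the DNA strands and hands the resulting break to recombination. Recombination acts in S and G2 phase, and many of its genes are transcribed most in proliferating cells through E2F factors.

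Total counts were 27572740 to 36272180 per library, and the 39 genes took 0.168% to 0.211% of them, with at least 30 counts for every member in every library. Values are CPM, the count per 1000000 counts of the library, in which 3 counts are 0.0827 to 0.109. Untreated replicate 2 stood apart. Across the 17479 genes with enough counts to be tested, which included all 39 members, its log2 CPM had a Pearson correlation of 0.896 to 0.903 with the other 3 libraries, against 0.983 to 0.992 among those (a description across genes). It was below the other 3 libraries in 26 of 39 members (66.7%, against 45% of all tested genes) and above them in 9 (23.1%, against 36.6%). The tests of single genes and the medians over members and classes are therefore given with and without it. Of 14 hepatocyte markers, 0 were above 1 CPM in every library, and ALB (albumin) had at most 3 counts in any, which goes against the labelled line. Summed CPM of these markers was 1.3 and 4.78 untreated and 16.8 and 20.1 treated. It was 6830 and 5980 against 5120 and 4350 for 8 epithelial markers, and 226 and 170 against 284 and 284 for 7 fibroblast markers, so these 3 sums did not overlap between the groups. For 6 blood markers it was 1.05 to 19.1, highest in untreated replicate 2. Genes within a list went opposite ways. Both treated libraries were above both untreated ones in LUM, KRT14 and KRT17, and below them in COL3A1 and KRT8. FGG alone had 9.76 and 14 CPM treated, most of the hepatocyte sum. No share was computed for sums over other gene lists, so no shift of a whole list is read from these sums. With all libraries, the edgeR test called 0 of the markers tested (6 hepatocyte, 4 epithelial, 6 fibroblast and 1 blood). Without untreated replicate 2, log2 fold changes were 2.87 for FGA, 3.71 for FGB, 5.99 for FGG, 3.81 for DCN and 1.05 for LUM. Those of KRT8 and KRT18 were -0.996 and -0.963. These 7 genes were named after their values were seen. In the same fit HNF4A (1.31), AFP (1.24), KRT14 (1.03) and TF (5.87, SE 2.10) also passed a 2-fold change. TF had 0 counts in untreated replicate 1, and 1 and 13 in the treated libraries. The rest of the markers tested were short of a 2-fold change there. The part of these markers in the results was not tested. In bulk samples, fewer cells of a type and less RNA per cell cannot be told apart.

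Promoter letters are shown because the members were chosen by role, not by sequence, and repair genes are known targets of E2F. RefSeq windows from 250 bases before to 50 after a transcription start (GRCh38.p14) were held for 34 of 39 members, in 49 windows. NBN, RAD54B, RMI2, XRCC5 and FANCI had no entry. Any of 3 spellings of the E2F letters on either strand (TTGGCGC as one, TTCGCGC as another and GCGGGAA as the last) stood in 23 of 49 windows (46.9%) of 20 genes, against 11% of all 35116 windows. The share of windows was 69.2% (9 of 13) for Fanconi, 48.1% (13 of 27) for homologous recombination and 11.1% (1 of 9) for end joining. By gene these were 8 of 12, 11 of 18 and 1 of 4. In end joining, 5 windows belong to LIG4 and 2 to NHEJ1, so its share of windows rests on few genes. TTTGAA, the core of the cell cycle homology region, was found in 6.12% of members' windows against 15.2% of all, and CCAAT in 34.7% against 34.6%. PALB2 held none of the E2F letters and BRCA2 none of the 3 motifs in these windows. A match is a description of letters, not of a bound site. The stretches below are examples from the genes with a match, and all hold GCGGGAA or its reverse complement. Among those not shown are EME1 (TTGGCGC, 80 bases before the start) and RAD52 (GCGGGAA, 234 bases before it). The following stretches of 70 bases just around the match are read 5′ to 3′ on the gene's strand, with the E2F letters (or their reverse complement) in capitals.
BRCA1, chr17:43125374-43125443, minus strand: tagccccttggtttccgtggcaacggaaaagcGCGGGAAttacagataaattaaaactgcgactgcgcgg
BLM, chr15:90717240-90717309, plus strand: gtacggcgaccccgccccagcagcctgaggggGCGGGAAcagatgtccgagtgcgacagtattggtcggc
RAD51D, chr17:35119781-35119850, minus strand: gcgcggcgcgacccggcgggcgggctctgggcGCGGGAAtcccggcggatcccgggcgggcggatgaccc
RAD54L, chr1:46247607-46247676, plus strand: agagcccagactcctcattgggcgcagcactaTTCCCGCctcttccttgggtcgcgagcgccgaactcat
FANCG, chr9:35079989-35080058, minus strand: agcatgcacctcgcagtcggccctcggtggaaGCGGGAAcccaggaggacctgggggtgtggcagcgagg
FANCL, chr2:58241387-58241456, minus strand: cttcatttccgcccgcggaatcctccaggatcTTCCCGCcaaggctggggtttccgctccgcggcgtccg

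The comparison asked whether the mRNA of repair genes differed after doxorubicin. None of the 39 passed an adjusted p of 0.05 with a 2-fold change, with all 4 libraries or without untreated replicate 2. In the quasi-likelihood test of edgeR (Benjamini-Hochberg) on all 4 libraries, 0 of 39 members were called, against 0% of all 17479 genes, and 0 members against 4.39% of genes had an unadjusted p under 0.05. The smallest adjusted p of a member was 0.773. DESeq2, which called 0.509% of genes, called 0 members. Without untreated replicate 2, edgeR called 0 members against 4.98% of genes, with 6 of 39 members (15.4%) against 19.5% of genes at an unadjusted p under 0.05. These 6 were BRCA1, BRCA2, RAD54L, RMI2, FANCE and XRCC6, and the smallest adjusted p was 0.139, for FANCE. An exact permutation test of 2 against 2 libraries cannot go below 0.333.

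Calls depended on which untreated library was kept. With untreated replicate 1 left out, edgeR called 11 members higher (28.2%, against 21.4% of genes) and 2 lower (5.13%, against 19.6%). Those higher were NBN, RBBP8, BRCA1, BARD1, RAD51B, RAD51D, RAD54B, BLM, FANCC, FANCD2 and SLX4, and those lower were XRCC3 and RMI1. These fits have 1 untreated library, which is assumed to vary like the treated ones.

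How many members could be bounded within a 2-fold change depended on the libraries. Over all 4 libraries, log2 fold changes (doxorubicin over untreated) ran from -0.81 for XRCC3 to 0.93 for BRCA1, with standard errors of 0.27 to 0.75, and the 95% interval lay within 2-fold in either direction for 4 of 39 members. Without untreated replicate 2, they ran from -0.62 to 0.71 with standard errors of 0.21 to 0.40, and the interval lay within 2-fold for 35 of 39, the other 4 being BRCA2, RMI2, RAD54L and FANCE. Without untreated replicate 1 it did so for 17 of 39. Fits with 1 untreated library take their spread from the 2 doxorubicin libraries alone. Their intervals therefore leave out the spread between the untreated replicates. The median log2 fold change over members was 0.09 with all libraries and 0.00 without untreated replicate 2, against 0.01 and 0.05 over all genes. By class, the medians were 0.24 and 0.11 for homologous recombination, 0.05 and -0.06 for Fanconi, and -0.02 and -0.17 for end joining. Scaling by library size alone moved the median of all genes to 0.17 and that of members to 0.24.

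**Figure D1:**
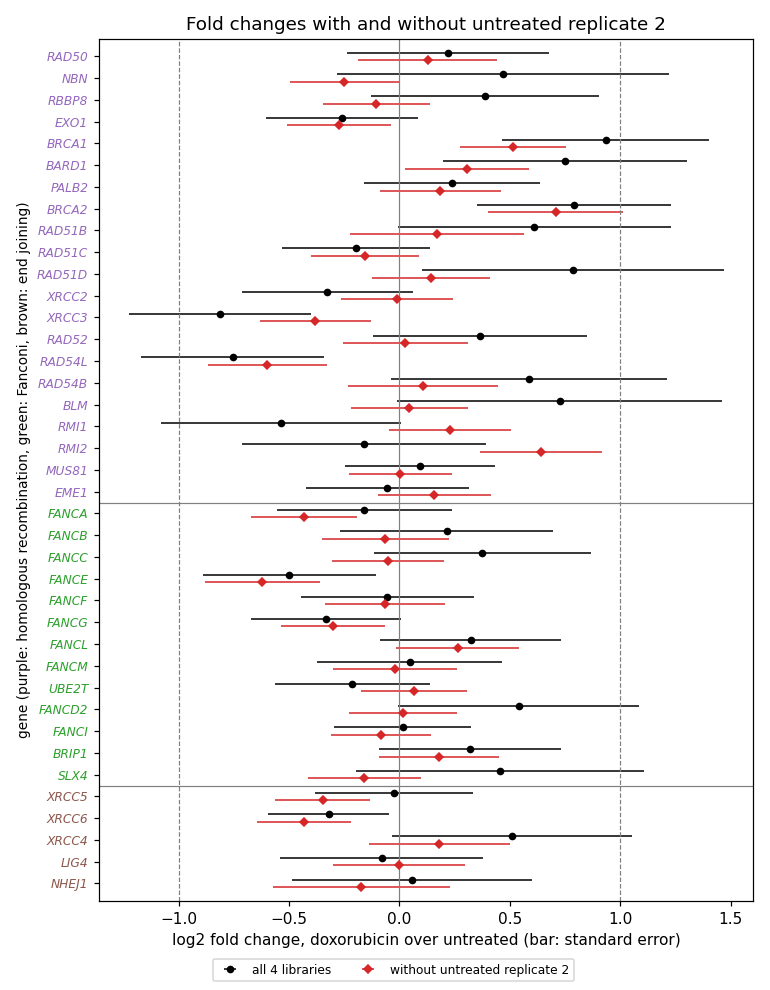
Log2 fold change of each repair gene (doxorubicin over untreated, x axis; bars are standard errors) with all 4 libraries (black) and without untreated replicate 2 (red), with dashed lines at a 2-fold change. Without that library the values lie between -0.62 and 0.71.

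As a description, CPM did not overlap between the groups in 18 of 39 members. Both doxorubicin libraries were above both untreated libraries in 13 (33.3%, against 30.3% of genes) and below in 5 (12.8%, against 11.5%). With CPM scaled by TMM, these were 8 (20.5%, against 21.3%) and 7 (17.9%, against 17.9%). The members' shares lay near those of all genes.

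**Figure D2:**
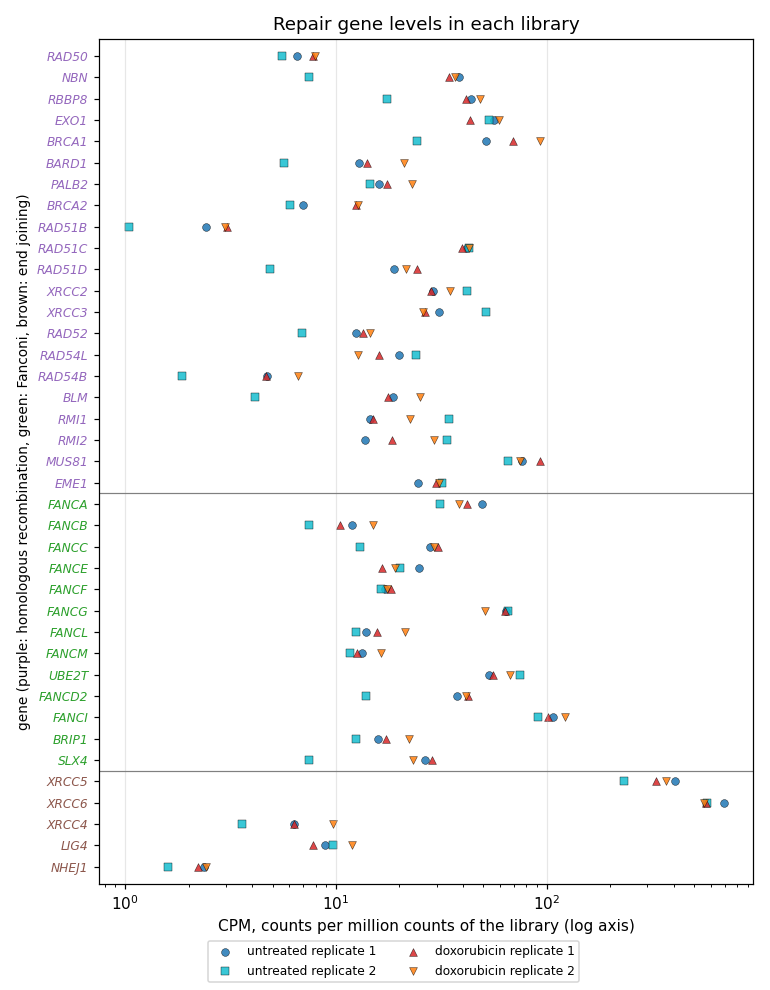
CPM (log axis) of each repair gene in each library, grouped by class. The squares of untreated replicate 2 lie left of the other 3 libraries in 26 of 39 genes, while the doxorubicin replicates differ by at most 1.57-fold.

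Homologous recombination begins with resection of the broken ends. RAD50, the ATPase of the complex that first binds the ends, stood at 6.56 CPM in untreated replicate 1, 5.58 in replicate 2, and 7.81 and 7.98 after doxorubicin. NBN, its partner that recruits the ATM kinase, had 38.2 and 7.45 untreated and 34.3 and 36.5 treated. RBBP8 (CtIP), which starts resection, had 43.6 and 17.5 against 41.3 and 48.2. EXO1, the nuclease that extends it, had 56.0 and 53.4 against 43.2 and 59.2. NBN and RBBP8 were low only in untreated replicate 2, which lay 5.13-fold and 2.49-fold below replicate 1. Their log2 fold changes went from 0.47 (SE 0.75) and 0.39 (SE 0.52) to -0.25 (SE 0.25) and -0.10 (SE 0.24) without that library. RAD50 was higher in both treated libraries, with log2 fold changes of 0.22 (SE 0.46) and, without untreated replicate 2, 0.13 (SE 0.32).

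The BRCA complexes act between resection and strand exchange. All 4 of their genes were higher in both doxorubicin libraries than in both untreated ones, with or without TMM scaling, as were 30.3% and, with TMM, 21.3% of all genes, so nothing particular to them is read from this. BRCA1 (chromosome 17, 43044295 to 43170245, GRCh38), the ubiquitin ligase that promotes resection, had a CPM of 51.3 and 24.1 untreated and 68.8 and 93.0 treated. The log2 fold change was 0.93 (SE 0.47, edgeR adjusted p 0.773), and 0.51 (SE 0.24, edgeR adjusted p 0.202) without untreated replicate 2. BARD1, its obligate partner, had 12.8 and 5.65 against 14.1 and 21.0. The groups did not overlap, yet the fold change of 0.75 (SE 0.55) went to 0.30 (SE 0.28) without that library. PALB2, which joins BRCA1 to BRCA2, had 16.0 and 14.5 against 17.4 and 22.9. BRCA2 (chromosome 13, 32315086 to 32400268), the large tumor suppressor that acts on resected single-stranded DNA, had 7.003 and 6.06 against 12.4 and 12.8. Here the untreated replicates lay close together. The fold change was much the same with all libraries (0.79, SE 0.44) as without replicate 2 (0.71, SE 0.31, 95% interval 0.11 to 1.31) or without replicate 1 (0.87, SE 0.32). The last of these rests on untreated replicate 2, which stood apart. None of these fits called BRCA2. Its fold change was short of the 2-fold limit in each, so no call was possible at any adjusted p.

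RAD51B, RAD51C, RAD51D, XRCC2 and XRCC3 form complexes that assist strand exchange. RAD51B had a CPM of 2.43 and 1.04 untreated and 3.03 and 2.97 treated, and RAD51C had 41.7 and 42.9 against 39.5 and 42.9. RAD51D had 18.9 and 4.85 against 24.3 and 21.6. XRCC2 had 28.8 and 42.0 against 28.4 and 34.8. RAD51D and XRCC2 belong to 1 complex, yet in untreated replicate 2 RAD51D was 3.90-fold below and XRCC2 1.46-fold above replicate 1. XRCC3, which pairs with RAD51C, had 30.96 and 51.7 against 26.5 and 25.8, both treated libraries lower. Its log2 fold change of -0.81 (SE 0.41) went to -0.38 (SE 0.25) without untreated replicate 2.

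RAD52, which anneals single strands, had a CPM of 12.5 and 6.93 untreated and 13.5 and 14.5 treated. RAD54L (chromosome 1, 46246461 to 46278480), a DNA translocase that drives strand exchange, had 19.9 and 23.9 against 16.0 and 12.7. Like BRCA2 but in the other direction, it had close untreated replicates and separated groups. Its log2 fold change was -0.76 (SE 0.41) with all libraries, -0.60 (SE 0.27) without untreated replicate 2 and -0.91 (SE 0.27) without replicate 1. The last of these rests on untreated replicate 2, which stood apart, and none of these fits called RAD54L. Its fold change was short of the 2-fold limit in each, so no call was possible at any adjusted p. RAD54B, a related motor, had 4.71 and 1.87 against 4.66 and 6.60, with overlapping groups.

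Joint molecules are dissolved by BLM with RMI1 and RMI2, or cut by MUS81 with EME1. BLM, the helicase mutated in Bloom syndrome, had a CPM of 18.7 and 4.12 untreated and 17.6 and 25.0 treated. RMI1 had 14.5 and 34.3 against 15.0 and 22.6, and RMI2 had 13.8 and 33.7 against 18.5 and 29.1. In untreated replicate 2 the helicase was 4.53-fold below replicate 1 while its partners were 2.37-fold and 2.45-fold above. Without that library RMI2 had a log2 fold change of 0.64 (SE 0.28, edgeR adjusted p 0.151), against -0.16 (SE 0.55) with it. MUS81 had 76.2 and 65.5 against 93.1 and 74.9, and EME1 had 24.6 and 31.8 against 29.7 and 30.8, so both overlapped.

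In the Fanconi pathway, 8 members form or anchor the core complex that ubiquitinates FANCD2 and FANCI. FANCA had a CPM of 49.1 and 30.99 untreated and 41.6 and 38.3 treated, and FANCG, which binds it, had 64.2 and 65.7 against 63.5 and 51.1. FANCB had 11.9 and 7.45 against 10.4 and 14.9, and FANCL, the ubiquitin ligase, had 13.9 and 12.4 against 15.7 and 21.3. FANCL was separated upward and FANCG downward, with log2 fold changes of 0.32 (SE 0.41) and -0.33 (SE 0.34), and of 0.26 (SE 0.28) and -0.30 (SE 0.23) without untreated replicate 2. FANCC had 27.9 and 13.0 against 30.3 and 29.1, and FANCF had 17.0 and 16.4 against 18.3 and 17.4. FANCE (chromosome 6, 35452338 to 35467104), which links the core to FANCD2, had 24.8 and 20.2 against 16.5 and 19.0. It was lower in both treated libraries, by -0.50 (SE 0.39) on the log2 scale with all libraries and -0.62 (SE 0.26, edgeR adjusted p 0.139) without untreated replicate 2. FANCM, the translocase that anchors the core on DNA, had 13.3 and 11.7 against 12.5 and 16.4.

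UBE2T, the ubiquitin-conjugating enzyme, had a CPM of 53.2 and 74.4 untreated and 55.8 and 67.0 treated. FANCD2 had 37.5 and 13.9 against 42.1 and 41.4, and FANCI, the other subunit of the clamp, had 107 and 90.5 against 101 and 122. FANCD2 was 2.70-fold lower in untreated replicate 2 than in replicate 1, and without it the fold change was 0.02 (SE 0.25). BRIP1, a helicase that binds BRCA1, had 15.8 and 12.4 against 17.3 and 22.2, both treated libraries higher. SLX4, the scaffold for nucleases that unhook crosslinks, had 26.3 and 7.48 against 28.7 and 23.1, with overlapping groups.

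End joining uses Ku, the ring that binds broken ends, and a ligase complex. XRCC6 (Ku70, chromosome 22, 41621163 to 41664048) had a CPM of 690 and 572 untreated and 571 and 556 treated, and XRCC5 (Ku80) had 404 and 233 against 331 and 369. Both Ku genes lay below untreated replicate 1 in the treated libraries. Without untreated replicate 2 their log2 fold changes were -0.43 (SE 0.21, edgeR adjusted p 0.239) for XRCC6 and -0.35 (SE 0.22) for XRCC5. XRCC4 had 6.34 and 3.57 against 6.32 and 9.65, LIG4, the ligase it stabilises, had 8.85 and 9.63 against 7.75 and 11.9, and NHEJ1 (XLF) had 2.37 and 1.59 against 2.22 and 2.43. All 3 ligation genes overlapped between the groups. Per kilobase of the canonical transcript, XRCC6 was the highest of the 39 in every library (262 to 325 CPM per kb) and NHEJ1 the lowest (0.199 to 0.303).

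Ratios between genes that share a complex were computed for 11 pairs in each library. Untreated replicate 2 lay outside the other 3 libraries in 9 of them. No such share was computed over other gene pairs, so nothing particular to partners is read from it. Among the other 3 libraries the log2 ratio of CPM per kb varied by at most 0.71. RAD51D over XRCC2 was -1.67 and -4.18 untreated and -1.29 and -1.75 treated. FANCD2 over FANCI was -1.63 and -2.81 against -1.37 and -1.67. In BRCA2 over PALB2, with -2.77 and -2.83 against -2.06 and -2.42, the groups did not overlap, nor did they in RMI1 over RMI2 (-1.14 and -1.19 against -1.51 and -1.57). The same held for BRCA1 over BARD1 (1.63 and 1.72 against 1.92 and 1.78) and XRCC4 over LIG4 (0.83 and -0.12 against 1.02 and 1.02). It also held for RAD51C over XRCC3 (0.43 and -0.27 against 0.58 and 0.74). In the remaining pairs the groups overlapped. Without a share over other gene pairs, nothing particular is read from this.

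**Figure D3:**
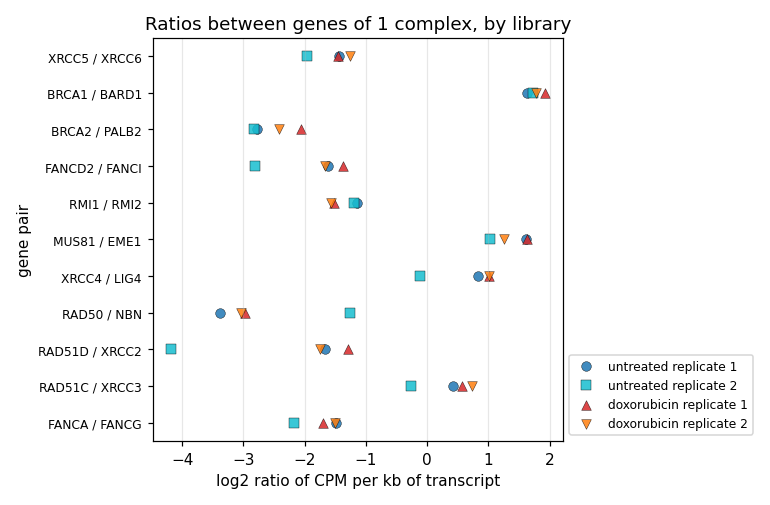
Log2 ratio of CPM per kb between genes that share a complex (x axis), 1 row per pair and 1 symbol per library. Untreated replicate 2 (square) lies outside the other 3 libraries in 9 of 11 pairs, and the widest range over the 4 libraries is 2.89, in RAD51D over XRCC2.

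The difference between the untreated replicates moved with transcript length. Across the 39 members, Spearman's rho between canonical transcript length and the log2 ratio of untreated replicate 2 over 1 was -0.39, against -0.34 over 14925 genes with a length. The median ratio was -0.15 in the 13 shortest members and -0.65 in the 13 longest. Its rho with GC content was 0.09 in members and 0.20 over all genes. The ratio of doxorubicin replicate 2 over 1 moved with GC content (rho -0.71 in members, -0.49 over all genes) and had a rho with length of -0.06 in members and 0.24 over all genes. GC content also moved with doxorubicin replicate 2 over untreated replicate 1 (rho -0.66 in members, -0.27 over all genes). For doxorubicin replicate 1 over untreated replicate 1, rho was -0.03 and 0.03. The points share their libraries, and the part of length and GC in the fold changes was not tested. At least 2-fold differences separated the untreated replicates in 13 members and the doxorubicin replicates in 0.

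**Figure D4:**
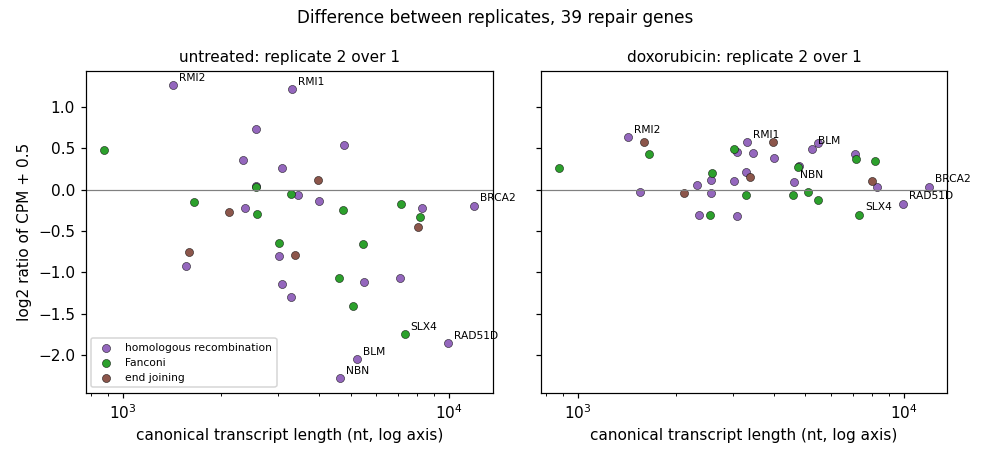
Log2 ratio of replicate 2 over replicate 1 (CPM + 0.5) against canonical transcript length (log axis) for the 39 genes, untreated (left) and doxorubicin (right). The untreated ratios run from -2.28 (NBN) to 1.26 (RMI2), and the doxorubicin ratios stay within 0.64 of 0.

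Of 46 further tested genes of the same pathways, edgeR called 0 with all libraries and 0 without untreated replicate 2. SLX1A, a nuclease subunit that SLX4 binds, is listed at 0 counts in every library and was not tested. The largest log2 fold changes were 0.93 (SE 0.49) for ZSWIM7, a recombination factor, and 0.70 (SE 0.67) for POLQ, the polymerase of alternative end joining. The smallest were -1.66 (SE 0.67) for SWSAP1, which binds ZSWIM7, and -1.29 (SE 1.02) for APLF, which binds Ku. ZSWIM7 had a CPM of 15.3 and 7.65 untreated and 23.6 and 25.4 treated, while SWSAP1 had 2.43 and 5.33 against 1.60 and 1.05. Without untreated replicate 2, the log2 fold changes were 0.54 (SE 0.27) for ZSWIM7, 0.06 (SE 0.26) for POLQ, -0.98 (SE 0.42) for SWSAP1 and 0.60 (SE 0.82) for APLF, whose sign turned. APLF had a CPM of 0.193 and 1.32 untreated and 0.321 and 0.326 treated.

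Since many repair genes follow the cell cycle, 20 proliferation genes were measured beside them. Their median log2 fold change was -0.58, and -0.41 without untreated replicate 2, against 0.09 and 0.00 in the repair genes. With all libraries edgeR called 0 of 20, with 4 at an unadjusted p under 0.05, against 4.39% of all genes. Without untreated replicate 2, edgeR gave log2 fold changes from -0.89 to 0.28, short of the 2-fold limit in every gene. No call was possible there at any adjusted p, so edgeR's lack of calls does not speak of the adjusted p. Without untreated replicate 1 it called 5 of 20 lower, against 19.6% of genes. With all libraries, the CPM of both doxorubicin libraries was below both untreated ones in 12 of 20 (11.5% of genes) and above in 1 (30.3% of genes). MKI67, a marker of cycling cells, had a CPM of 262 and 383 untreated and 215 and 232 treated, and PCNA, the replication clamp, had 214 and 348 against 182 and 196. TOP2A, the topoisomerase that doxorubicin poisons, was the 1 gene above, with 278 and 284 against 300 and 438. Whether the repair genes differed from the proliferation genes was not tested.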

How the data were processed

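RNA-seq covered 4 libraries labelled HepG2, with 2 untreated and 2 given doxorubicin. The authors deposited raw counts of reads per gene, without normalization. Per the study's methods, reads were filtered with FastQC and Cutadapt. The submitters' processing notes name HISAT2, HTSeq and hg38, with versions not given in the sources used here. GENCODE 31 is named in the header of these deposited counts, whose layout is that of featureCounts. Strand use is not given in the sources used here, and exons of 23 of 39 members overlap an exon of another gene (18 on the opposite strand), so reads of such pairs cannot be told apart. Libraries held 27572740 to 36272180 counts. CPM is the count over the column total, times 1000000.

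Groups and replicate numbers came from sample titles. All genes kept by filterByExpr (17479) were fitted in edgeR 4.0.16 (R 4.3.3) with TMM scaling and the quasi-likelihood test, treated against untreated. A gene was called at a Benjamini-Hochberg adjusted p under 0.05 where the log2 fold change was 1 or more in either direction. SE is the fold change over the root of F. The scripts were tested on simulated data. Alternatives were DESeq2 1.42.0, the exact and likelihood ratio tests of edgeR, RLE and library-size scaling, other filters, a replicate block and leaving out each library. Positions came from GENCODE 44 (GRCh38). The members and gene lists were chosen with earlier results of these data known. All members are named, and of the further pathway genes those called or, with none called, the 2 highest and 2 lowest fold changes. Libraries that share a number did not deviate together from their groups (correlation -0.03). Figures were drawn with Matplotlib 3.10.9.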

Additional observations from a re-analysis of the deposited data

How the results depend on the processing

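With 2 libraries per group, 1 of which stood apart, a 2-fold change could be bounded for few members. Fits without a library leave 1 in its group, assumed to vary like the other group. Over all genes, calls higher and lower were 46 and 43 with DESeq2, 41 and 5 with the exact test, 56 and 8 with the likelihood ratio test, and 16 and 4 with the replicate block, against 0 and 0. Leaving out a library gave 0 to 3745 higher and 0 to 3428 lower, for members 0 to 11 and 0 to 2, and for the further pathway genes 0 to 7 and 0 to 5. The groups share replicate numbers only as numbers (2 pairs, correlation -0.03), and the block called 0 members.

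Groups that did not overlap, 13 higher and 5 lower, numbered 15 to 26 and 5 to 11 without a library. For these counts without a library, no share over all genes was computed, so nothing particular to members is read from them. With TMM-scaled CPM, groups that did not overlap numbered 8 and 7. That scaling, and edgeR's older quasi-likelihood setting (0 calls), were chosen after seeing the data. Class medians without a library ran from 0.11 to 0.38 for homologous recombination, -0.06 to 0.19 for Fanconi and -0.17 to 0.36 for end joining. The cause of these shifts was not tested.

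No member was called with all libraries, and these log2 fold changes changed sign. DESeq2 and RLE gave values below 0 for FANCM (-0.004 and -0.005) and FANCI (-0.037 in both), and the CPM filter -0.012 for FANCI. Library size alone gave 0.001 for RMI2, 0.10 for EME1, 0.10 for FANCF, 0.14 for XRCC5 and 0.082 for LIG4. No filter gave 0.02 for EME1, 0.006 for FANCF and 0.017 for XRCC5, and the block 0.031 for XRCC5. Without a library the ranges were -0.25 to 2.06 for NBN, -0.10 to 1.17 for RBBP8, -1.06 to 0.23 for RMI1, -0.70 to 0.64 for RMI2, -0.12 to 0.28 for MUS81, -0.26 to 0.16 for EME1, -0.43 to 0.18 for FANCA, -0.063 to 0.57 for FANCB, -0.05 to 1.00 for FANCC, -0.14 to 0.023 for FANCF, -0.11 to 0.19 for FANCM, -0.46 to 0.066 for UBE2T, -0.084 to 0.12 for FANCI, -0.16 to 1.61 for SLX4, -0.35 to 0.40 for XRCC5, -0.36 to 0.16 for LIG4 and -0.17 to 0.36 for NHEJ1.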
